A study of Rattus norvegicus and Mus musculus with 12 samples.

Results

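The dual-specificity phosphatases (DUSPs) Dusp1, Dusp2, Dusp4, Dusp5, Dusp6, Dusp10 and Dusp16 and the Sprouty genes Spry1, Spry2 and Spry4 were followed in RNA-seq libraries of cultured chondrocytes. They were found by gene symbol, and all 10 were listed among the 19687 genes of the rat table and the 28603 genes of the mouse table. The chondrocytes came from articular cartilage of newborn Sprague–Dawley rats and C57BL/6 mice and were used at passage 1. The rat control group (RC) and the mouse control group (MC) were untreated, whereas the rat model group (RM) and the mouse model group (MM) had been given the inflammatory cytokine IL-1β at 20 ng/ml for 24 h. Each group held 3 libraries, 12 in all. No genetic change was described for any group, the strain label of the mouse libraries varied from C57BL/6 to C57BL/9, and it was not given whether a library came from 1 animal or from pooled cartilage.

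Mitogen-activated protein kinases (MAPKs) carry signals from IL-1β and growth factors to the nucleus in chains of kinases that end in ERK, JNK or p38. DUSPs of the MAPK phosphatase group remove the activating phosphates from these last kinases, and Sprouty proteins restrain the path from receptor tyrosine kinases to ERK. Many of these genes are themselves induced by MAPK signalling, and so they are known as feedback genes; in chondrocytes the same kinases are known to take part in the response to inflammatory cytokines.

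Total counts per library were 21114361 to 24897458 in RC, 20169272 to 25903459 in RM, 16841580 to 17957308 in MC and 17482589 to 20048322 in MM. The 6 chondrocyte markers examined (Col2a1, Acan, Sox9, Col9a1, Comp and Matn3) were present in all groups, and all 6 had downregulated expression after IL-1β in both species. Their summed level in FPKM (reads per gene, scaled to the length of the gene and the total count of the library) went from 3772 to 4476 in RC to 1331 to 1385 in RM, and from 1851 to 1891 in MC to 154.3 to 166.3 in MM. In these bulk samples, a change in the share of a cell type and a change in RNA per cell cannot be told apart.

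In mouse chondrocytes, IL-1β was followed by upregulated expression of every DUSP and Sprouty gene that could be tested, from 2.32-fold for Spry1 to 15.8-fold for Dusp4. In rat chondrocytes the changes were smaller, as they were over all genes (SD of the log2 fold change 0.71, against 1.53 in mouse). Dusp1, Dusp5, Dusp6, Dusp16 and Spry2 rose by 1.19-fold to 1.62-fold, Spry1 fell, and Dusp4, Dusp10 and Spry4 did not pass the test. Dusp2, a phosphatase known from lymphoid cells, was below the filter on low counts in both species. It had 0 to 4 counts per rat library and 0 to 3 per mouse library, around the limit of 3 counts that a count of 0 allows.

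A gene was called changed at an adjusted P under 0.05 in edgeR's quasi-likelihood test. Of the 9 genes tested, 5 were called higher and 1 lower in rat, where 35.1% of all 13303 genes tested were called, 18.3% higher and 16.8% lower. In mouse 9 of 9 were called higher, where 75.0% of all 14774 genes were called, 37.4% higher and 37.7% lower. The libraries of the model and control groups did not overlap for 7 of 9 genes in rat, with 5 above and 2 below, against 47.9% of all genes (24.0% above and 23.8% below). In mouse they did not overlap for 9 of 9, all above, against 76.5% of all genes (38.0% above and 38.5% below).

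The median log2 fold change of the 9 genes was 0.26 in rat and 1.89 in mouse, beside 0.0052 and -0.016 over all genes tested. Criteria for differentially expressed genes were set after those of the study, as an unadjusted P under 0.05, a log2 change of 0.85 or more up or down and 1 library that reaches an FPKM of 1. The study words its limit as a fold change without naming log2, so the log2 scale is a reading made here, and the counts by these criteria rest on it. They were met by 9 of the 9 mouse genes, against 25.6% of all mouse genes (12.6% higher and 13.0% lower). In rat 0 of 9 passed by edgeR and by DESeq2, against 8.54% of all rat genes in edgeR (4.64% higher and 3.90% lower). By limma 0 passed too, with 6 of the genes tested under its FPKM filter. In edgeR the rat genes with an unadjusted P under 0.05 were the same 6 that were called at an adjusted P, where 35.1% of all rat genes were called. The share of all genes at the unadjusted P was not counted. Rat Spry1 met the P and log2 limits (-1.15, unadjusted P = 0.0144 in edgeR) and missed only the FPKM limit. Mouse FPKM were scaled by total counts, whereas fold changes used TMM scaling. Without TMM the median change over all mouse genes was -0.29 on the log2 scale, so mouse folds given here exceed the ratios of the FPKM. All P values measure only spread between libraries of the same group, 3 in each, which may be partly technical. The tests also draw the spread of each gene towards that of other genes. Very small P values thus do not rest on the libraries of 1 gene alone. The spread between libraries was narrower in mouse, with a common coefficient of variation in edgeR of 0.032 against 0.106 in rat. A change of the same size thus passed more readily in mouse. The numbers of calls in the species therefore do not compare the responses alone.

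**Figure D1:**
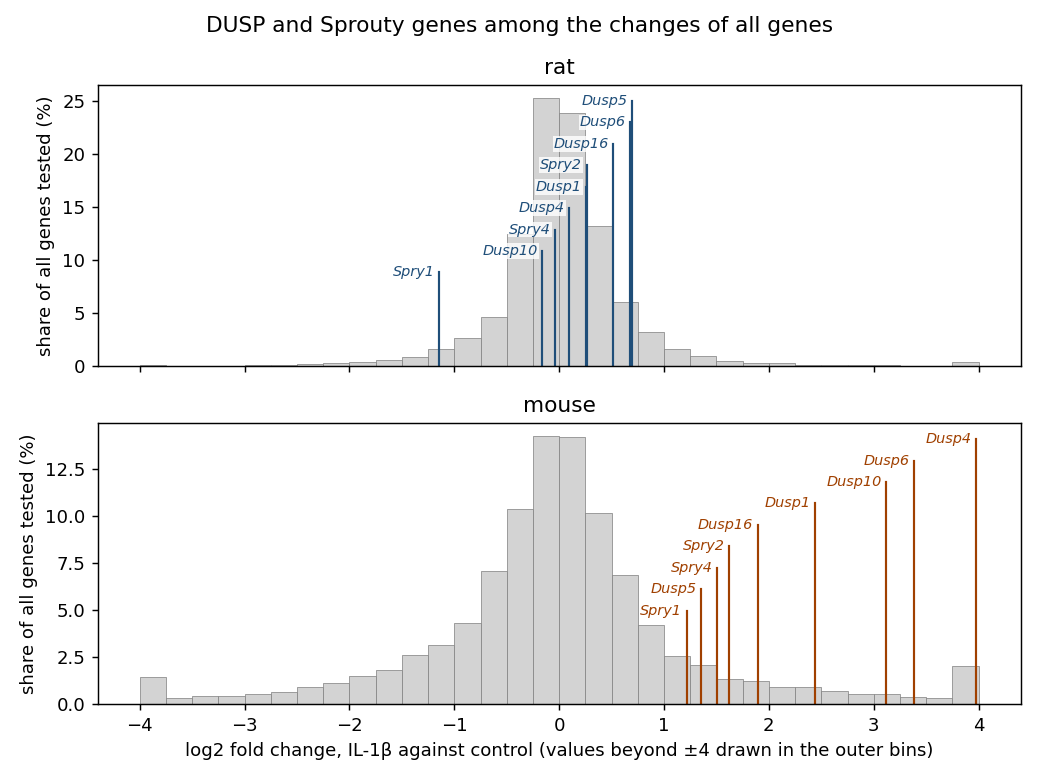
Distribution of the log2 fold change (model group against control group, horizontal axis) over all genes tested in each species, with the share of genes in percent on the vertical axis and 1 coloured line for each DUSP and Sprouty gene; the height of a line only spaces the names. In mouse all 9 lines lie to the right of the bulk of genes, between percentile 88.7 of all genes (Spry1) and percentile 98.2 (Dusp4), whereas in rat they run from percentile 3.33 (Spry1) to 91.4 (Dusp5).

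In the mouse annotation used here (GENCODE M21, build GRCm38), Dusp1 lies at chr17:26505590-26562128, minus strand. It encodes an inducible nuclear phosphatase that acts on p38 and JNK in particular, and it was the most abundant of the 10 genes in every group. Summed over the 4 annotated genes that overlap it, 50 bases of its exons lie within their spans. In rat its FPKM was 18.5, 20.4 and 21.2 in the RC libraries and 25.7, 23.5 and 23.5 in the RM libraries. In mouse it was 27.4, 25.2 and 23.2 in MC and 110.0, 112.9 and 116.3 in MM. The model libraries stood above the control libraries in both species, narrowly in rat and by a wide margin in mouse. The log2 fold change was 0.26 ± 0.082 (SE, n = 3 per group) in rat, with an adjusted P of 0.0341 in edgeR's test, and 2.44 ± 0.040 in mouse, with an adjusted P of 1.18e-53. The rat call of Dusp1 was lost under upper quartile scaling (0.19, adjusted P = 0.112 in edgeR) and when any library other than RC3 was left out (adjusted P 0.0570 to 0.132).

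Dusp4 (mouse chr8:34807297-34819894, plus strand) encodes another inducible nuclear phosphatase. Its FPKM in rat was 0.697, 0.769 and 0.512 in RC and 0.748, 0.796 and 0.598 in RM. In the mouse table it was 0.554, 0.780 and 0.691 in MC and 9.01, 8.90 and 8.50 in MM. The rat groups overlapped, whereas the mouse model libraries stood far above their controls, with 1379 counts in MM against 96 in MC. The mouse log2 fold change of Dusp4 was 3.98 ± 0.13 (SE; adjusted P = 3.21e-37 in edgeR), the highest of the 9 genes tested. The rat value was 0.096, with a 95% interval from -0.40 to 0.59 and an adjusted P of 0.771, and it turned to -0.052 without RC3.

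Dusp5 (mouse chr19:53529109-53542431, plus strand) encodes a nuclear phosphatase specific for ERK. In rat its FPKM was 2.69, 2.30 and 2.82 in RC and 4.96, 3.46 and 4.37 in RM. The mouse FPKM was 3.05, 2.81 and 3.36 in MC and 6.58, 7.01 and 5.85 in MM. Every model library was above every control library in both species, and the control levels were alike in size in both tables. The log2 fold change was 0.69 ± 0.16 in rat (SE; adjusted P = 0.00721 in edgeR), the highest rat value among the 9 genes tested, and 1.36 ± 0.11 in mouse (adjusted P = 8.67e-18). In the mouse annotation 547 exon bases of Dusp5 lie within the span of an antisense gene, and the strand setting of the counting was not given.

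**Figure D2:**
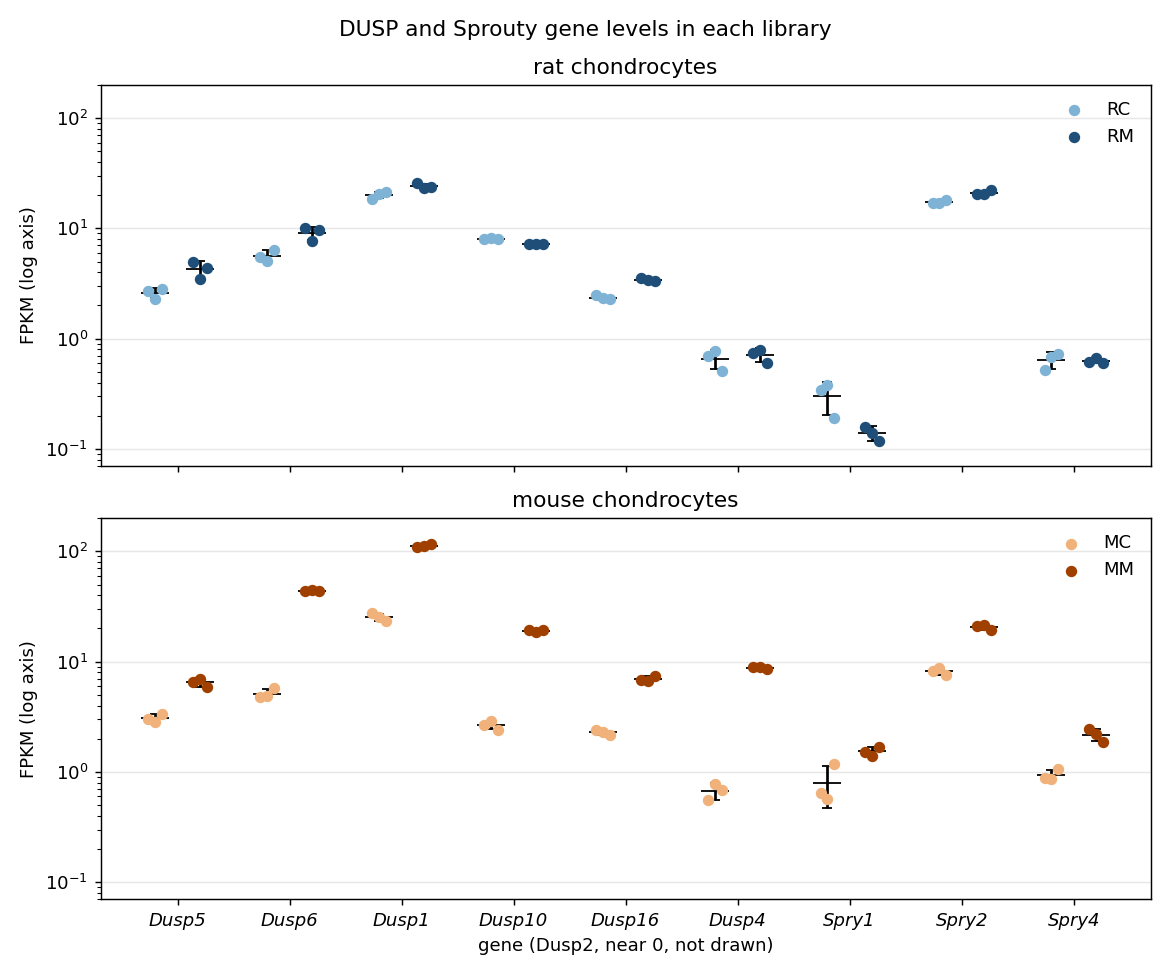
FPKM of the 9 genes tested in each library on a log axis, with rat and mouse in separate panels, points for the 3 libraries of a group, and bars for the group mean ± SD. Dusp2, near 0, is not drawn. In the mouse panel the MM points stand apart from the MC points for all 9 genes drawn, and in the rat panel the gaps are narrow or absent.

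Promoters of Dusp1 and Dusp5 are shown because these nuclear phosphatases rose in both species and because, among the genes described, only their windows held a match to a motif searched. The sequences are from RefSeq on the rat build GRCr8 and run from 250 bases before to 50 bases after the start of the gene, 5′ to 3′. Promoters of 9 of the 10 genes were matched by symbol, in 10 windows, and Dusp4 was not matched. Capitals mark the matches. The Dusp1 window is chr10:17184603-17184902 on the plus strand, with 68.0% G and C, and that of Dusp5 is chr1:262543524-262543823 on the plus strand, with 69.0%, beside a median of 51.7% over all promoters.
Dusp1: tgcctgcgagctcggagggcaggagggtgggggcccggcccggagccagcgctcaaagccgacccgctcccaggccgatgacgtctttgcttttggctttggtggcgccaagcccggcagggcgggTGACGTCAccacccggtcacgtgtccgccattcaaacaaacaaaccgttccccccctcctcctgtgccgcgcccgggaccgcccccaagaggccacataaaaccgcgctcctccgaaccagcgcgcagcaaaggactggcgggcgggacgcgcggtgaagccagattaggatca
Dusp5: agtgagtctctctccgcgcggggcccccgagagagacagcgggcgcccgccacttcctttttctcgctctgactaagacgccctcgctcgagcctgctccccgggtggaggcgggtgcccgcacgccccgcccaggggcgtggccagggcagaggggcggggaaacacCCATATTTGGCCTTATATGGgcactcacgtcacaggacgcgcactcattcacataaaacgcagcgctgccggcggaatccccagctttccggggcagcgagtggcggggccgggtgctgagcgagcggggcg
The match in Dusp1 is a cAMP response element, TGACGTCA, at position -124 from the start of the gene. It occurs in 1.83% of the 33469 rat promoters searched on both strands, and in 1 of the 10 windows here. The matches in Dusp5 are 2 adjoining CArG boxes, CCATATTTGG and CCTTATATGG, at positions -82 and -72 from the start of the gene. A CArG box, the element bound by serum response factor, occurs in 1.64% of promoters and was added to the search after the sequences had been seen. The AP-1 site TGACTCA, the ETS site CCGGAAGT and the NF-κB site of the immunoglobulin kappa enhancer occur in 4.63%, 3.81% and 0.111% of promoters, and no match to them was in the 10 windows. The motifs searched do not overlap one another in these windows, and a match is a description of the letters only.

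Dusp6 (mouse chr10:99263231-99267489, plus strand) encodes a cytoplasmic phosphatase specific for ERK and is widely used as a readout of ERK signalling. In rat its FPKM was 5.45, 5.08 and 6.38 in RC and 10.05, 7.64 and 9.64 in RM. In mouse it was 4.76, 4.89 and 5.73 in MC and 43.5, 45.1 and 43.6 in MM. The groups did not overlap in either species, and the mouse model libraries lay close together. The log2 fold change was 0.67 ± 0.12 in rat (SE; adjusted P = 0.00201 in edgeR) and 3.38 ± 0.054 in mouse (adjusted P = 2.69e-54), or 1.60-fold and 10.4-fold.

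Dusp10 (mouse chr1:184013302-184075636, plus strand) and Dusp16 (mouse chr6:134715468-134792625, minus strand) encode phosphatases known to act on the stress kinases JNK and p38. The FPKM of Dusp10 in rat was 7.95, 8.20 and 7.93 in RC and 7.28, 7.24 and 7.26 in RM. The mouse values were 2.67, 2.87 and 2.42 in MC and 19.2, 18.6 and 19.2 in MM. The rat model libraries of Dusp10 thus lay just below their controls without overlap, and the mouse model libraries far above. The mouse log2 fold change of Dusp10 was 3.12 ± 0.075 (SE; adjusted P = 1.97e-44 in edgeR), and the rat value was -0.16, with a 95% interval from -0.34 to 0.014 and an adjusted P of 0.139.

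The FPKM of Dusp16 was 2.46, 2.33 and 2.27 in RC and 3.52, 3.39 and 3.31 in RM. In mouse it was 2.40, 2.29 and 2.15 in MC and 6.88, 6.63 and 7.42 in MM. The model libraries stood above the controls in both species, from control levels that were close to each other. The log2 fold change of Dusp16 was 0.52 ± 0.13 in rat (SE; adjusted P = 0.0108 in edgeR) and 1.89 ± 0.066 in mouse (adjusted P = 1.46e-35). Dusp5, Dusp6 and Dusp16 kept their rat call in every alternative analysis run.

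Spry2 (mouse chr14:105891947-105896819, minus strand) was the most abundant Sprouty gene in all 4 groups. In rat its FPKM was 16.9, 17.1 and 18.0 in RC and 20.4, 20.4 and 22.1 in RM. The mouse FPKM was 8.23, 8.73 and 7.63 in MC and 21.2, 21.6 and 19.3 in MM. The model libraries were above the controls in both species. The log2 fold change of Spry2 was 0.26 ± 0.076 in rat (SE; adjusted P = 0.0224 in edgeR) and 1.62 ± 0.070 in mouse (adjusted P = 2.39e-30). The rat call was lost under upper quartile scaling (0.20, adjusted P = 0.0785 in edgeR) and without RC2, RM1, RM2 or RM3 (adjusted P 0.0509 to 0.0989).

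Spry1 (mouse chr3:37639947-37644598, plus strand) changed in opposite directions. In rat its FPKM was 0.339, 0.380 and 0.190 in RC and 0.159, 0.139 and 0.117 in RM, from 10 to 22 counts and 7 to 9 counts per library. In the mouse table it was 0.643, 0.572 and 1.17 in MC and 1.53, 1.41 and 1.67 in MM. No model library overlapped the controls in either species, although MC3 stood well above the other MC libraries. The log2 fold change was -1.15 ± 0.39 in rat (SE; adjusted P = 0.0429 in edgeR) and 1.21 ± 0.21 in mouse (adjusted P = 4.68e-07), or 1.60 in mouse without MC3. The rat fall of Spry1 was not called by DESeq2 (-1.16, adjusted P = 0.124), without the filter on low counts (adjusted P = 0.0741) or by limma on log2(FPKM + 1) without a filter (-0.19, adjusted P = 0.0916), nor when any library but RC3 was left out (adjusted P 0.0895 to 0.156 in edgeR). In the mouse annotation 710 exon bases of Spry1 lie within the span of a transcript model on the opposite strand.

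Spry4 was expressed at a low level. Its FPKM was 0.515, 0.679 and 0.727 in RC and 0.615, 0.666 and 0.606 in RM, and the rat groups overlapped. In mouse it was 0.879, 0.854 and 1.06 in MC and 2.42, 2.23 and 1.87 in MM, without overlap. The mouse log2 fold change of Spry4 was 1.51 ± 0.14 (SE; adjusted P = 5.73e-15 in edgeR). The rat value was -0.038, with a 95% interval from -0.48 to 0.40 and an adjusted P of 0.907, and it was 0.0032 without RC2 and 0.061 without RC3.

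The response to IL-1β was then compared between the species, as the log2 fold change in mouse minus that in rat in a joint fit of 10912 genes with a symbol in both tables. The mouse change was larger for 9 of the 9 DUSP and Sprouty genes, against 31.4% of all shared genes (32.3% were larger in rat and 63.8% differed in either direction). Larger is meant by sign, so a gene that fell further in mouse than in rat counts as larger in rat. The median difference was 2.18 on the log2 scale, beside -0.030 over all shared genes. By edgeR's test the difference was 3.89 ± 0.24 for Dusp4 (SE; adjusted P = 3.19e-10), 3.28 ± 0.10 for Dusp10 (8.44e-14), 2.71 ± 0.15 for Dusp6 (5.84e-11) and 2.18 ± 0.097 for Dusp1 (4.66e-12). It was 1.38 ± 0.12 for Dusp16 (adjusted P = 3.93e-08) and 0.67 ± 0.19 for Dusp5 (0.00635). Among the Sprouty genes it was 2.37 ± 0.48 for Spry1 (adjusted P = 0.000387), 1.54 ± 0.23 for Spry4 (1.82e-05) and 1.36 ± 0.11 for Spry2 (6.52e-09). With scaling by library size alone, the difference of Dusp5 was 0.37 and no longer passed (adjusted P = 0.0981 in edgeR). The species differ also in strain, in sequencing depth and in the gene models used for counting, and these cannot be told apart from the species.

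**Figure D3:**
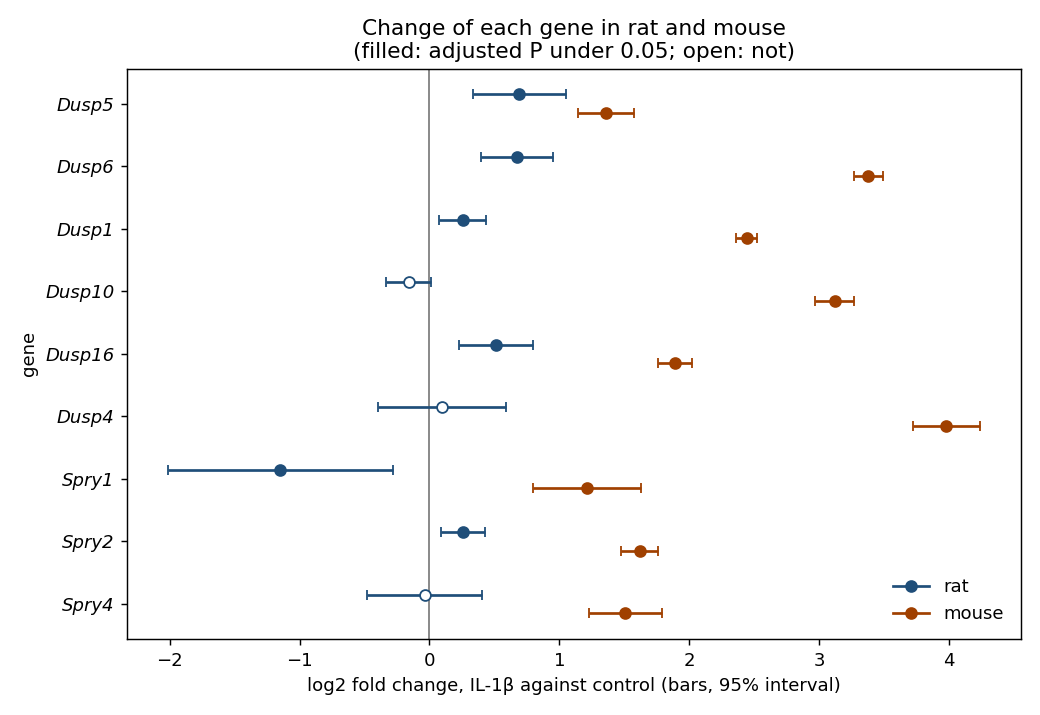
log2 fold change of each gene in rat and mouse with its 95% interval, where filled points passed an adjusted P under 0.05 and open points did not. The mouse points run from 1.21 to 3.98, and the rat points from -1.15 to 0.69.

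Levels were compared between genes in FPKM, which is per gene length. In RC the order was Dusp1, Spry2, Dusp10, Dusp6, Dusp5, Dusp16, Dusp4, Spry4, Spry1 and Dusp2. In RM it was the same except that Dusp6 stood above Dusp10. In both rat groups the ranges of Dusp5 and Dusp16 overlapped, as did those of Dusp4 and Spry4, so these neighbours were not told apart.

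In MC the order was Dusp1, Spry2, Dusp6, Dusp5, Dusp10, Dusp16, Spry4, Spry1, Dusp4 and Dusp2, with overlap between Dusp5 and Dusp10, between Spry4 and Spry1 and between Spry1 and Dusp4. In MM it was Dusp1, Dusp6, Spry2, Dusp10, Dusp4, Dusp16, Dusp5, Spry4, Spry1 and Dusp2, with overlap between Dusp16 and Dusp5. Dusp4, at rank 9 in MC and not told apart there from Spry1, stood at rank 5 in MM, and Dusp6 passed Spry2.

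The summed level of the 7 DUSP genes was 39.4 ± 1.70 FPKM (SD, n = 3) in RC and 39.1 ± 1.64 in MC, and it was 49.0 ± 3.12 in RM and 198.4 ± 2.94 in MM. The summed level of the 3 Sprouty genes was 18.3 ± 0.607 FPKM in RC and 21.7 ± 0.970 in RM, and 9.92 ± 0.213 in MC and 24.4 ± 1.34 in MM. The DUSP sum in the model groups was thus 1.24 times the control level in rat and 5.07 times in mouse, and the Sprouty sum 1.19 times and 2.46 times. The tables of the species were normalized separately, so the levels are set side by side without a test.

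Dusp1 made up 50.9% of the DUSP sum in RC and 49.4% in RM, and 64.5% in MC and 57.0% in MM. The share of Dusp6 was 14.3% in RC and 18.5% in RM, and 13.1% in MC and 22.2% in MM. Dusp10 made up 20.4% of the DUSP sum in RC and 14.9% in RM, whereas its mouse share was 6.78% in MC and 9.58% in MM. Dusp4 was 1.73% of the mouse sum in MC and 4.44% in MM, while the share of Dusp5 was 7.87% and 3.27%, although its level was higher in MM. Spry2 held 94.8% and 96.5% of the Sprouty sum in RC and RM, and 82.6% and 84.8% in MC and MM.

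**Figure D4:**
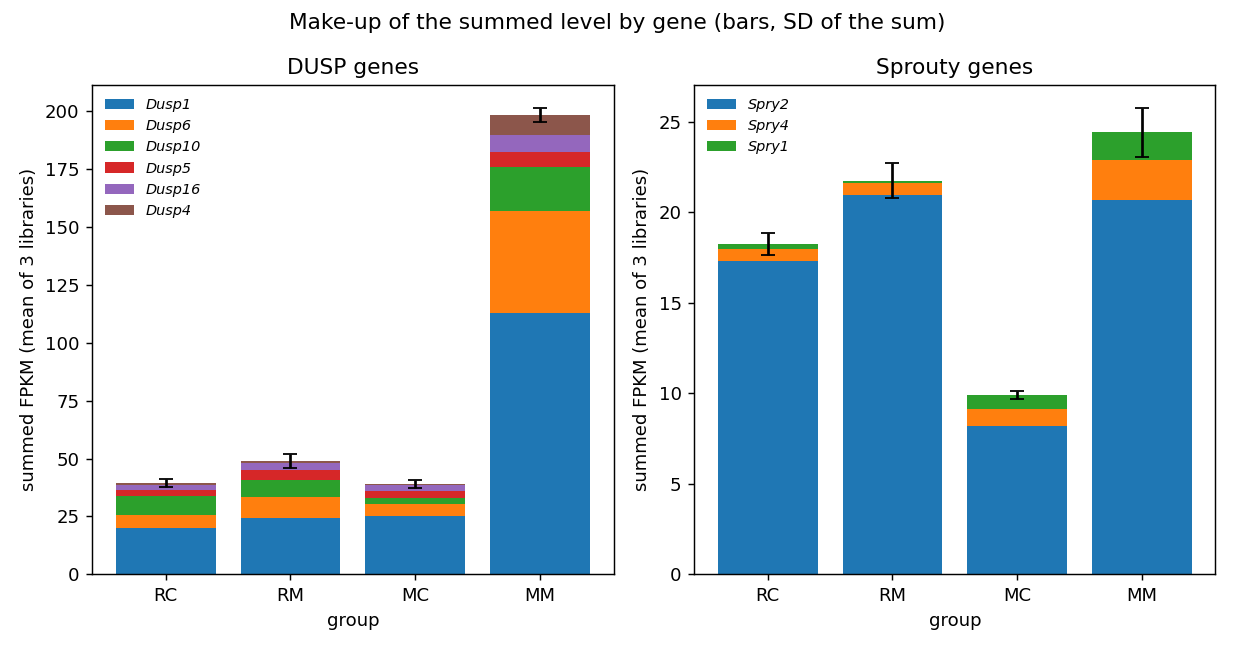
Group mean FPKM of the DUSP genes and of the Sprouty genes, stacked by gene, for RC, RM, MC and MM on a linear axis that starts at 0, with the SD of the sum as a bar and Dusp2, near 0, not drawn. The DUSP stack rises from 39.1 to 198.4 FPKM between MC and MM, and from 39.4 to 49.0 between RC and RM.

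Other genes of the same pathway were read against these results, and each list is to be set beside all genes. Of all genes tested, 18.3% were called higher and 16.8% lower in rat, and 37.4% and 37.7% in mouse. The mouse change was larger for 31.4% of all shared genes and the rat change for 32.3%. As above, larger is meant by sign, and genes that fell mainly in mouse, such as Mapk12 and Mapk3, count for rat. Of the related phosphatases, Sproutys and Spreds, 2 of 8 tested were higher and none lower in rat (median log2 fold change 0.13), and 7 of 9 were higher and 2 lower in mouse (1.42). The mouse change was larger for 6 of the 8 tested in both species and the rat change for 1. Spred2 and Spred3, inhibitors of the step from Ras to Raf, changed by 0.49 and 0.62 (log2) in rat and by 2.19 and 2.52 in mouse, and the differences were 1.70 (adjusted P = 6.44e-11 in edgeR) and 1.90 (5.86e-08). Dusp3, a small phosphatase of ERK and JNK, had 0.15 in rat and 1.54 in mouse (difference 1.38, adjusted P = 1.40e-09). Dusp8, a phosphatase of JNK and p38, had 0.12 and 1.42 (difference 1.29, adjusted P = 4.99e-06).

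Of 16 ERK-responsive genes and other feedback regulators, 7 were higher and 1 lower in rat (median 0.30), and 12 were higher and 3 lower in mouse (median 0.95). The mouse change was larger for 10 and the rat change for 2. Errfi1, an inhibitor of the EGF receptor, changed by 1.44 (log2) in rat and 4.99 in mouse, with a difference of 3.56 (adjusted P = 2.00e-14 in edgeR). The early response gene Ier3 had 1.27 and 5.93 (difference 4.66, adjusted P = 3.72e-14). Fosl1, an AP-1 subunit, had 1.15 and 4.42 (difference 3.28, adjusted P = 2.59e-13). The ETS factor Etv1 had 0.014 and 2.86 (difference 2.85, adjusted P = 1.75e-11).

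Of the MAP kinases themselves, 2 of 7 tested were higher and none lower in rat (median 0.12), and 6 of 8 were higher and 2 lower in mouse (median 0.55). The mouse change was larger for 4 of the 7 tested in both species and the rat change for 2. Mapk14, which encodes p38α, showed a change of 0.12 (log2) in rat and 0.77 in mouse (difference 0.65, adjusted P = 9.78e-07 in edgeR), and Mapk8, which encodes JNK1, had 0.29 and 0.80 (difference 0.51, adjusted P = 0.00105). Mapk12, which encodes p38γ, and Mapk3, which encodes ERK1, were lower in mouse, at -1.0 and -0.40, with rat values of 0.088 and -0.062 (differences -1.08 and -0.34, adjusted P = 0.00161 and 0.00251). Of the MAP kinase kinases, 1 of 6 tested was higher and 3 were lower in rat (median -0.20), and 5 of 7 were higher and 1 lower in mouse (median 0.42). The mouse change was larger for 5 of the 6 tested in both species and the rat change for 0.

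Map2k1, which encodes the ERK kinase MEK1, rose by 0.25 (log2) in rat and 2.07 in mouse, and the difference was 1.82 (adjusted P = 5.39e-13 in edgeR). Map2k2, which encodes MEK2, had -0.40 in rat and 0.42 in mouse (difference 0.82, adjusted P = 3.58e-06). The JNK kinase genes Map2k7 and Map2k4 had -0.013 and 0.053 in rat and 0.85 and 0.34 in mouse (differences 0.87 and 0.29, adjusted P = 8.40e-07 and 0.0079). Of 17 upstream kinases and adaptors, 5 were higher and 1 lower in rat (median 0.084), and 12 were higher and 2 lower in mouse (median 0.23). The mouse change was larger for 5 of them and the rat change for 4. These are 29.4% and 23.5%, beside 31.4% and 32.3% of all shared genes.

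Among the upstream kinases and adaptors, Map3k8, a kinase known to link inflammatory receptors to ERK, rose by 3.08 (log2) in rat and 2.21 in mouse. Its change was thus larger in rat (difference -0.87, adjusted P = 0.00073 in edgeR). Braf had 0.040 and -0.46 (difference -0.50, adjusted P = 0.00345). The phosphatase gene Ptpn11 had 0.11 and 0.72, and the adaptor gene Grb2 had 0.0080 and 0.42 (differences 0.61 and 0.41, adjusted P = 7.23e-07 and 0.000288).

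Calls of small changes in these lists moved with the scaling. With library size alone, 25.0% of all mouse genes were called higher and 54.7% lower, the upstream list held 4 higher and 5 lower, the MAP kinases 4 and 3, the ERK-responsive genes 9 and 5, the related phosphatases 6 and 2 and the MAP kinase kinases 4 and 2. The change was then larger in mouse for 20.1% of all shared genes and in rat for 49.4%. These counts were 1 and 7 for the upstream list, 2 and 3 for the MAP kinases and 8 and 5 for the ERK-responsive genes. They were 5 and 2 for the related phosphatases, 3 and 0 for the MAP kinase kinases and 8 and 0 for the DUSP and Sprouty genes. The mouse call of Map2k4 was then lost, as were the differences between species of Map2k4, Mapk8 and Grb2, and 9 of the 9 DUSP and Sprouty genes, whose mouse changes were larger than the shift of the median of all genes, were called higher. In rat the call of Map2k1 was lost with upper quartile factors (0.19, adjusted P = 0.0618 in edgeR), which left 0 of 6 MAP kinase kinases higher.

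**Figure D5:**
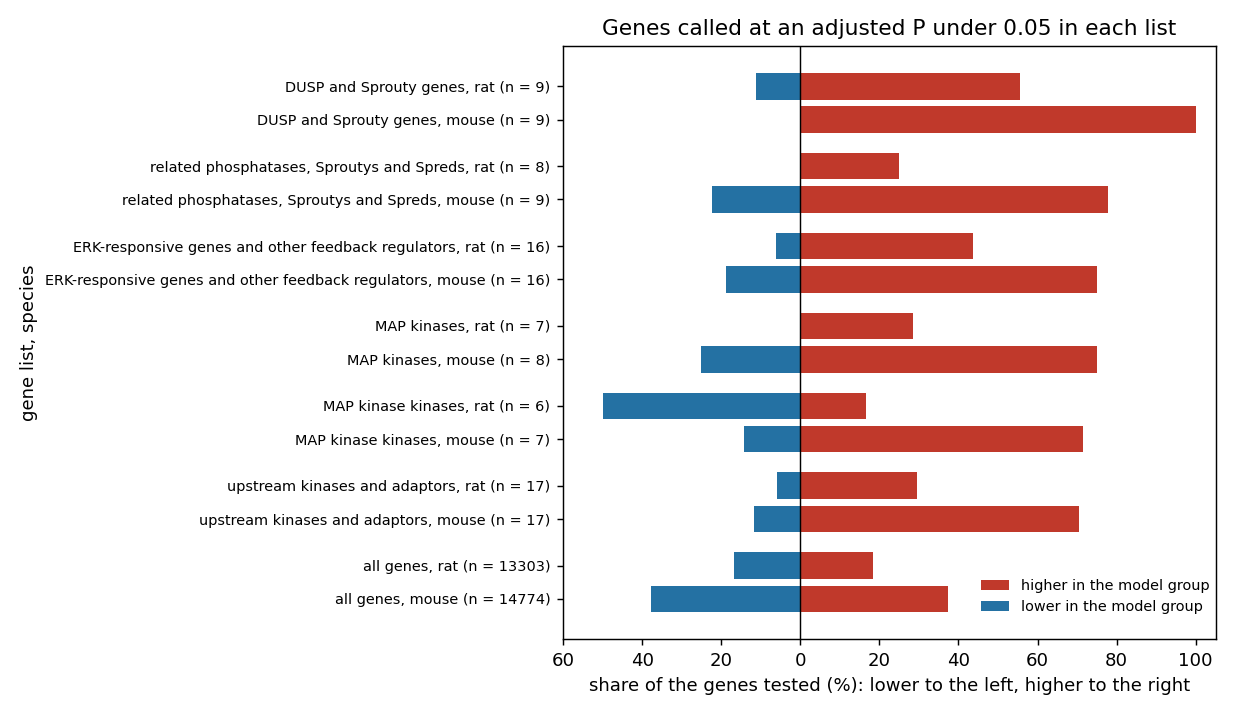
Share of the genes tested in each pathway list, in percent, that were called higher (to the right) or lower (to the left) at an adjusted P under 0.05 in rat and in mouse, with all genes tested for comparison. All 9 DUSP and Sprouty genes tested were called higher in mouse, and 5 higher and 1 lower in rat.

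Markers of other cell types were measured beside these changes, and their part in the results was not tested. The summed FPKM of the macrophage and leukocyte markers was 16.3 to 18.4 in RC and 29.5 to 31.8 in RM, and 5.62 to 5.98 in MC and 32.1 to 33.5 in MM. In rat Cd68 and Cd14 were called higher and Csf1r lower, and in mouse all 3 were called higher, that of Csf1r not with library size alone. The defining markers Ptprc and Adgre1 stayed at 3 counts or fewer per mouse group and at 16 to 23 per rat group, and Itgam had 0 counts in mouse.

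Fibroblast markers summed to 2760 to 3210 FPKM in RC and 1832 to 1953 in RM, with 2 of 5 lower and none higher, and to 1915 to 1955 in MC and 583 to 593 in MM, with 3 of 4 lower and 1 (Pdgfra) higher, a call lost with library size alone. Muscle markers summed to 3.23 to 4.18 FPKM in RC, 2.64 to 3.07 in RM, 2.60 to 2.95 in MC and 0.146 to 0.358 in MM, and of the 1 tested in each species that in mouse was lower. Endothelial markers summed to at most 0.174 FPKM in rat and 0.504 in mouse, and none passed the filter on low counts in rat. The 1 tested in mouse, Tek, had 96 counts in MC and 50 in MM and was called lower by edgeR, but its libraries overlapped and DESeq2 did not call it (adjusted P = 0.0642). Below the filter, mouse Cdh5 had 2 counts in MC and 29 in MM and Kdr had 17 and 39, both without overlap.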

How the data were processed

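RNA was sequenced from passage 1 chondrocytes, 3 libraries per group,. The authors deposited raw counts per Ensembl gene and, in the same tables, FPKM values made from those counts. The submitters' processing notes name HISAT2, HTSeq 0.11.2, GRCm38 and Rnor_6.0 without their roles. Groups came from the sample labels, and 0 columns of sample values were left unused.

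Counts were analysed with edgeR 4.0.16 in R 4.3.3 (filterByExpr, TMM, glmQLFit, glmQLFTest), in each species separately, and in 1 fit over 12 libraries for the difference, with Benjamini-Hochberg adjustment over all genes tested. The edgeR tests were checked on simulated data, where false calls made up 6.70% of calls in rat, 5.26% in mouse and 6.31% for the difference. The difference comes from the single fit of all 12 libraries, in which all groups share 1 spread per gene. For changes within rat that fit made 36.1% false calls, so within a species it served only as an alternative. The simulation changed 200 genes per species, far fewer than were called here. It therefore did not check the scaling under the broad mouse change. Other alternatives were DESeq2 1.42.0, limma 3.58.1 on log2(FPKM + 1) and log2(FPKM + 0.1), library size alone, upper quartile factors, other filters, a replicate block and leaving out each library. With 3 libraries against 3, an exact permutation test cannot go below 0.1, so none was used.

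The DUSP and Sprouty genes and all lists were chosen with earlier results of these data known. By the rule for named genes, all 10 were described, and of each pathway list the 4 whose difference between species had the lowest P; marker genes were named for their place in a count. The symbol Map2k3 stood on more than 1 rat row and was left out in rat. For 8 of the 10 mouse genes the length implied by FPKM equalled that of GENCODE M21. The exceptions were Dusp1 and Spry4.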

Additional observations from a re-analysis of the deposited data

Results flagged for a closer look

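The change after IL-1β differed between the species for all 9 DUSP and Sprouty genes tested, by the interaction test of edgeR on 3 libraries per group with adjustment over all shared genes. By the same test 63.8% of all shared genes differed in either direction, 31.4% with a positive difference. The mouse minus rat difference in log2 fold change was 2.18 for Dusp1, 3.89 for Dusp4, 0.67 for Dusp5, 2.71 for Dusp6, 3.28 for Dusp10, 1.38 for Dusp16, 2.37 for Spry1, 1.36 for Spry2 and 1.54 for Spry4. For Spry1 the fitted changes had opposite signs in the species, and those of Dusp10 and Spry4 also did, although neither passed the test in rat. No group held enough libraries for a test of single outlying values.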

How the results depend on the processing

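In mouse 9 of 9 genes were called under every alternative run, and 7 to 9 passed the criteria for differentially expressed genes, with 7 under limma on log2(FPKM + 1). Of all mouse genes, 70.1% were called with DESeq2, 79.7% with library size alone and 43.4% without the filter on low counts. The difference between species passed for 9 genes under every alternative except library size alone, with 8, where that of Dusp5 was 0.37. Of all shared genes, 69.5% differed in either direction with library size alone and 52.7% without the filter on low counts. In rat 0 genes passed those criteria under any alternative. The number called was 6 with library size alone, 5 with DESeq2 and 4 with upper quartile factors, beside 35.1%, 34.6% and 36.9% of all rat genes. With limma it was 5, of 6 genes tested under the FPKM filter and of 10 without it. On log2(FPKM + 1) limma called 34.2% of all rat genes under that filter and 22.1% without it. Leaving out 1 library at a time gave 3 to 6 rat calls. There were 3 without RC2, RM1, RM2 or RM3, where the calls of Dusp1, Spry1 and Spry2 were lost. There were 4 without RC1 and 6 without RC3. Of all rat genes, 46.5% were called without RC1, 28.5% without RC2 and 25.1% without RC3, so the RC libraries did not weigh alike. The share was 24.6% without RM1, 24.5% without RM2 and 27.8% without RM3. The cause was not tested. The rat values of Dusp4 (-0.052 to 0.21, below 0 without RC3) and Spry4 (-0.19 to 0.061, above 0 without RC2, 0.0032, or RC3) turned sign with 1 library left out but were never called.

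Replicate numbers recur in all groups, but same-numbered libraries showed no shared deviation (correlations of -0.098 to 0.085 in rat and 0.0012 to 0.015 in mouse). In rat, libraries of unlike number reached -0.19 and 0.16. With 3 libraries per group these values cannot exclude that the numbers pair the samples. With the replicate block, 4 genes were called in rat, 9 in mouse and 9 for the difference, and the rat values of Dusp1 (0.26, adjusted P = 0.0638 in edgeR) and Spry1 (-1.12, 0.0585) no longer passed. Dusp2 in both species and Spry1 in rat rest on few counts, where depth limits the precision.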

Other observations

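As a description of pattern, genes were ranked by Pearson r with the 3 DUSP genes of smallest P for the difference between species, over the 12 libraries, on log2 CPM minus the mean of the same species' control group, among 8594 shared genes. All 12 libraries share the same species and treatment structure, so high values are common and carry no P. Closest to Dusp10 were Ywhag, Fstl1 and Gja1, each with r = 0.999, which changed by -0.061, -0.070 and -0.085 (log2) in rat and by 1.16, 1.31 and 2.62 in mouse. Closest to Dusp1 were Trip10 (r = 0.999), Orai2 (0.998) and Pdpn (0.998), with changes of 0.084, 0.37 and 0.23 in rat and 1.22, 2.78 and 2.73 in mouse. Closest to Dusp6 were Hmga1 (r = 0.998), Timp1 (0.997) and Ldha (0.997), with changes of 0.64, 0.55 and 0.57 in rat and 2.78, 2.40 and 2.48 in mouse.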
